A study of Mus musculus with 6 samples.

Results

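Amino acid supply and tRNA charging were followed through 36 genes: 19 cytosolic aminoacyl-tRNA synthetases, 8 enzymes that make amino acids or creatine precursors, and 9 amino acid transporters of the plasma membrane. The list was drawn up by name and role, with earlier results of these data known. A probe set with a single gene symbol measured 35 of the 36, out of 18194 genes measured in all. Mars was found under its newer symbol Mars1, and Dars was not analysed here. The 35 genes had 71 such probe sets, and each gene was represented by its brightest one on average over the arrays.

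NMRI mice gave whole pancreas at postnatal day 15, and each sample was hybridised to 1 Affymetrix 3′ expression array. The 3 Prox1-OE samples carried Jojo-Prox1, an overexpression allele of the homeobox transcription factor Prox1, together with Ngn3-cre. The 3 controls carried Ngn3-cre alone, so the Cre driver was shared by all samples. The Ngn3 promoter is active in endocrine progenitors, whereas the pancreas is mostly acinar, and each value is thus an average over islet and other cells. Separate animals were not stated for the samples of a group, and the p-values therefore cover the spread between the arrays, which may be technical.

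The aminoacyl-tRNA synthetases each join 1 amino acid to its tRNAs, the step that supplies the ribosome. Cells that export much protein, such as acinar and beta cells, depend on that supply, and the pancreas is known for high asparagine synthetase and for making creatine precursors. When charging fails or the endoplasmic reticulum is stressed, the transcription factor ATF4 binds a C/EBP-ATF response element and switches on synthetases, transporters and synthesis enzymes together.

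The labelled tissue was borne out by its markers: the 12 acinar genes measured of 14 listed read above the median of every array, the lowest at 8.78 and the highest at 14.92 on the log2 scale. Array medians ran from 4.38 to 4.42 and Pearson correlations between arrays from 0.988 to 0.994. On the leading principal component (31.4% of the variance), Prox1-OE replicate 1 scored 42.4 and control replicate 3 scored -21.1, with the other 4 arrays between -15.0 and 6.17. Control replicate 3 stood further apart on component 2 (22.7% of the variance), at 31.9 against -21.1 to 6.92 on the other arrays. B cell markers averaged 1.96 above the control mean on Prox1-OE replicate 1, and markers of dividing cells averaged 0.85 above it on control replicate 3. The mean log2 value of Prox1 was 5.20 ± 0.19 (SD, n = 3) for the Prox1-OE arrays and 5.14 ± 0.41 for the controls (limma adjusted p = 0.971), and whether its probes lie within the transgene's transcript is not given in the sources used here.

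The response element was looked up in the promoters of the members, since some of these genes are known to be switched on together through it. RefSeq windows of GRCm38.p6, from 250 bases before to 50 bases after a transcription start, were at hand for 24 of the 35 members. The core of the element, TGATGNAA on either strand (N is any base), was found in the windows of 7 of the 24 genes (29.2%), against 4.51% of 27025 genes with a window and 3.24% of 14453 genes also measured on the arrays. The share was not particular to the members: among genes of the amino acid stress response, 5 of 21 with a window held it (23.8%). Of the synthetases with a window, 5 of 11 held it (Aars, Gars, Iars, Tars and Yars), and so did Asns and Slc7a11. In Iars and Yars it lay only after the start, and Aars held a second match there. The 150 bases before the start of the 5 others are shown 5′ to 3′ on the gene's strand, with each match in capitals, so that its place beside the start can be seen. They are Aars at chr8:111033692-111033841 (plus strand), Gars at chr6:55037851-55038000 (plus), Tars at chr15:11399659-11399808 (minus), Asns at chr6:7693210-7693359 (minus) and Slc7a11 at chr3:50443614-50443763 (minus).
Aars: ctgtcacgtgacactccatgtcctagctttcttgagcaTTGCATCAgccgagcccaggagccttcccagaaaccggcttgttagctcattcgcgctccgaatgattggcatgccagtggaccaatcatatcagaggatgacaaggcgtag
Gars: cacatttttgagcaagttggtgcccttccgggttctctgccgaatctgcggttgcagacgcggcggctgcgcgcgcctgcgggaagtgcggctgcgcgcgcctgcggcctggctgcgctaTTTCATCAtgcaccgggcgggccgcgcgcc
Tars: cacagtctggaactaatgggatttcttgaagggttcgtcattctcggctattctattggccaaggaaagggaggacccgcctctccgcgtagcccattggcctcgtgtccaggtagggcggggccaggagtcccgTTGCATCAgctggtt
Asns: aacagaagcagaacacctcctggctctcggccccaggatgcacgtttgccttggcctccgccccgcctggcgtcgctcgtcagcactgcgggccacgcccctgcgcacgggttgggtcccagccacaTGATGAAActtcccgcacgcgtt
Slc7a11: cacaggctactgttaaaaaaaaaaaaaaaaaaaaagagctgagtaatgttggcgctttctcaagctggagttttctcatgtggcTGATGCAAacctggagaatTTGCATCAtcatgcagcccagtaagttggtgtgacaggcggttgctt

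Before the start, the match began 112 bases away in Aars, 30 in Gars, 15 in Tars and 23 in Asns, and Slc7a11 held 2 there, beginning 66 and 47 bases away. The second match of Aars began at base 10 after the start and is not in the stretch shown. The 7 genes with a match differed between the genotypes by -0.16 to -0.02 on the log2 scale, with a median of -0.07. Those of the 17 genes with a window but no match ran from -0.33 to 0.06, with a median of -0.03, so the ranges overlapped. Some members with larger differences, such as Wars and Cth, had no window and were not searched. A link between a match and the difference was not tested. A match describes the letters of the window and is no evidence of binding.

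No member passed the test between Prox1-OE and control. At a limma adjusted p of 0.05 over all genes, 0 of 35 were called, where 5 of 18194 genes were (0.0275%), 4 higher and 1 lower (0.0055%). At an unadjusted p under 0.05 there were 2 members, Slc7a8 and Wars, against 6.65% of all genes. The differences of the 35 members ran from -0.33 (Slc7a8) to 0.06 (Phgdh), with a median of -0.07, beside a median of -0.01 over all genes. A negative difference was seen for 27 of 35 members, against 53.8% of all genes, but without control replicate 1 it was 16 of 35.

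The intervals show the precision of the differences over these arrays. Separate animals were not stated, so the intervals need not bound a change between animals. For 32 of the 35 members, the 95% interval of the difference (limma, not adjusted for the number of genes) lay wholly within a 1.5-fold change in either direction. That share was close to the 89.7% of all genes. The exceptions were Cth, whose interval reached down to -0.66, Slc7a8 (-0.62) and Wars (-0.61). No interval of a member reached above 0.40. These values hold for the whole pancreas, and a change limited to the islet cells would be averaged with the other tissue.

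**Figure D1:**
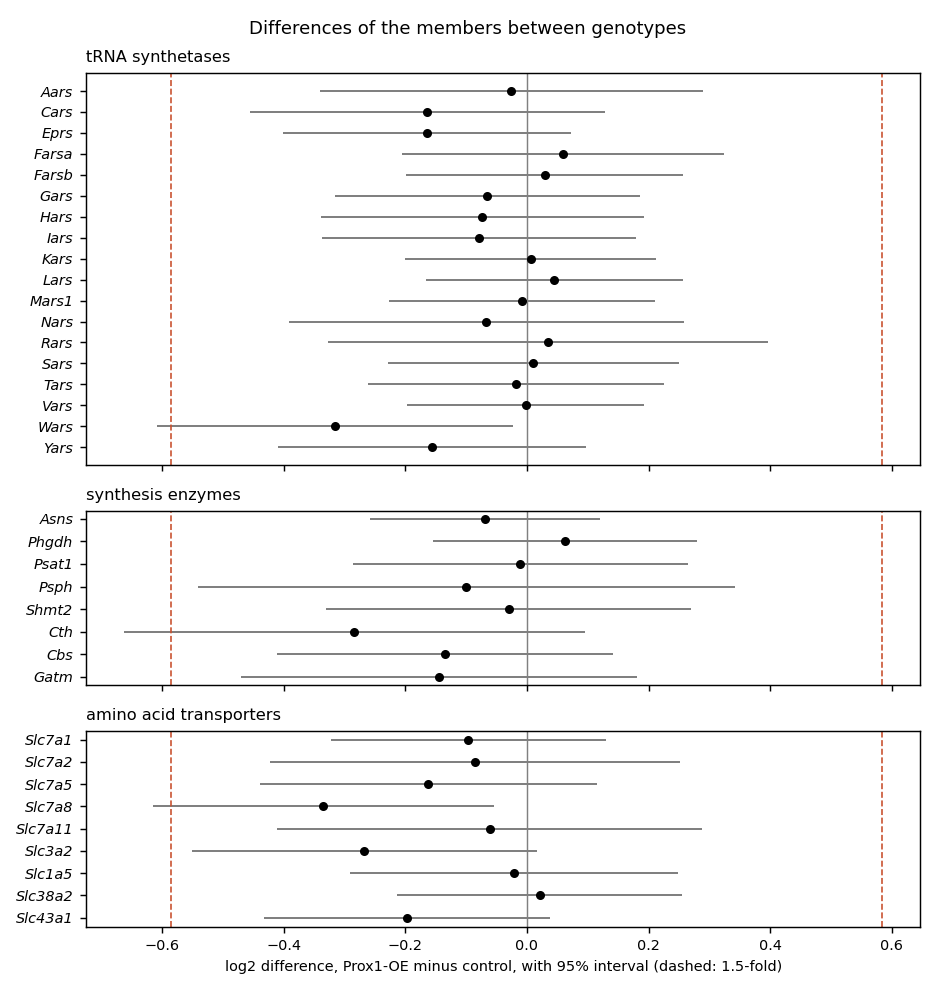
Log2 differences of the 35 members (x axis, Prox1-OE minus control, with 95% intervals from limma, n = 3 arrays a group) by role (panels), 1 gene a row. Points lie between -0.33 and 0.06, and only the intervals of Wars, Cth and Slc7a8 cross the dashed line of a 1.5-fold change.

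Of the 18 synthetases measured, 12 had a negative and 6 a positive difference, with a median of -0.02. Wars, the tryptophanyl-tRNA synthetase, which interferon-gamma is known to induce, differed most. It read 8.15, 8.58 and 8.37 on Prox1-OE replicates 1, 2 and 3 and 8.65, 8.82 and 8.58 on control replicates 1, 2 and 3 (log2 difference -0.32 ± 0.13 SE, limma adjusted p = 0.739). Prox1-OE replicate 1 was the lowest, and the groups met where Prox1-OE replicate 2 and control replicate 3 read alike. The probe set that stood for Wars can also bind near-identical transcripts, but all 4 probe sets of the gene had negative differences, from -0.49 to -0.21. The brightest probe set specific to 1 transcript gave the -0.49.

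Eprs, which charges both glutamate and proline tRNAs, read 9.46, 9.68 and 9.44 in Prox1-OE and 9.64, 9.81 and 9.62 in control (-0.16 ± 0.10, limma adjusted p = 0.796). Yars, the tyrosyl-tRNA synthetase, read 8.76, 8.83 and 8.83 in Prox1-OE and 9.10, 9.04 and 8.75 in control (-0.16 ± 0.11, adjusted p = 0.811). Cars, the cysteinyl-tRNA synthetase, read 7.26, 7.57 and 7.63 in Prox1-OE and 7.70, 7.77 and 7.48 in control (-0.16 ± 0.13, adjusted p = 0.828). In all 3 genes the groups overlapped, and for Yars the lowest of the 6 arrays was a control. Iars, the isoleucyl-tRNA synthetase, spanned 10.11 to 10.34 in Prox1-OE and 10.13 to 10.46 in control (-0.08 ± 0.11, limma adjusted p = 0.916). Nars, the asparaginyl-tRNA synthetase, spanned 10.86 to 11.17 and 10.77 to 11.22 (-0.07 ± 0.14, adjusted p = 0.952), so that its Prox1-OE values lay inside the control range. Differences of the other 12 synthetases lay between -0.07 and 0.06. Among them were Farsa and Farsb, the 2 subunits of the phenylalanyl-tRNA synthetase, at 0.06 ± 0.12 and 0.03 ± 0.10 (limma adjusted p = 0.946 and 0.974). A dimmer probe set of Farsa differed by 0.28 and a dimmer probe set of Farsb by 0.39. Their remaining probe sets differed by -0.14 to 0.04, and none passed the threshold.

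Differences between arrays of a group were larger than the difference between the groups for most synthetases. The range over the 3 controls exceeded the size of the genotype difference for 17 of 18 synthetases and for 32 of 35 members, against 82.4% of all genes. The synthetases also shared an order within the control group. Control replicate 3 was the lowest control for 17 of 18 synthetases and 7 of 8 synthesis enzymes, but for 4 of 9 transporters. Over all genes it was the lowest control for 35.6%. The synthetases averaged 0.06 and 0.09 above the control mean on control replicates 1 and 2 and stood at -0.16 on control replicate 3. On Prox1-OE replicates 1, 2 and 3 the deviations were -0.12, 0.03 and -0.08, inside the span of the controls. Several marker lists were also lowest on control replicate 3 among the controls. Endothelial markers averaged 0.25, 0.16 and -0.41 on control replicates 1, 2 and 3 (4 of 4 genes lowest on replicate 3), beta cell markers 0.27, -0.01 and -0.25 (7 of 8), macrophage markers 0.16, -0.01 and -0.14 (5 of 7) and the 2 adipocyte markers 0.43, 0.26 and -0.69. Markers of dividing cells were highest there (-0.54, -0.31 and 0.85). Acinar markers averaged 0.01, -0.02 and 0.01, with ranges over the controls from 0.01 for the bright Ctrb1 to 0.33 for the transcription factor Ptf1a, which was lowest on control replicate 3 (4 of 12). The acinar Cela3b gave the highest value of any probe set (14.92), and genes that bright may show little of a change. The dimmer Nr5a2 and Rbpjl had ranges of 0.30 and 0.29. Unlike Ptf1a, Nr5a2 and Gp2 were highest on control replicate 3, and Rbpjl was lowest on control replicate 2. The acinar genes with the wider ranges thus shared no order, and the acinar mean is a weak measure of the acinar share. The part of these cells in the order of the synthetases was not tested.

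**Figure D2:**
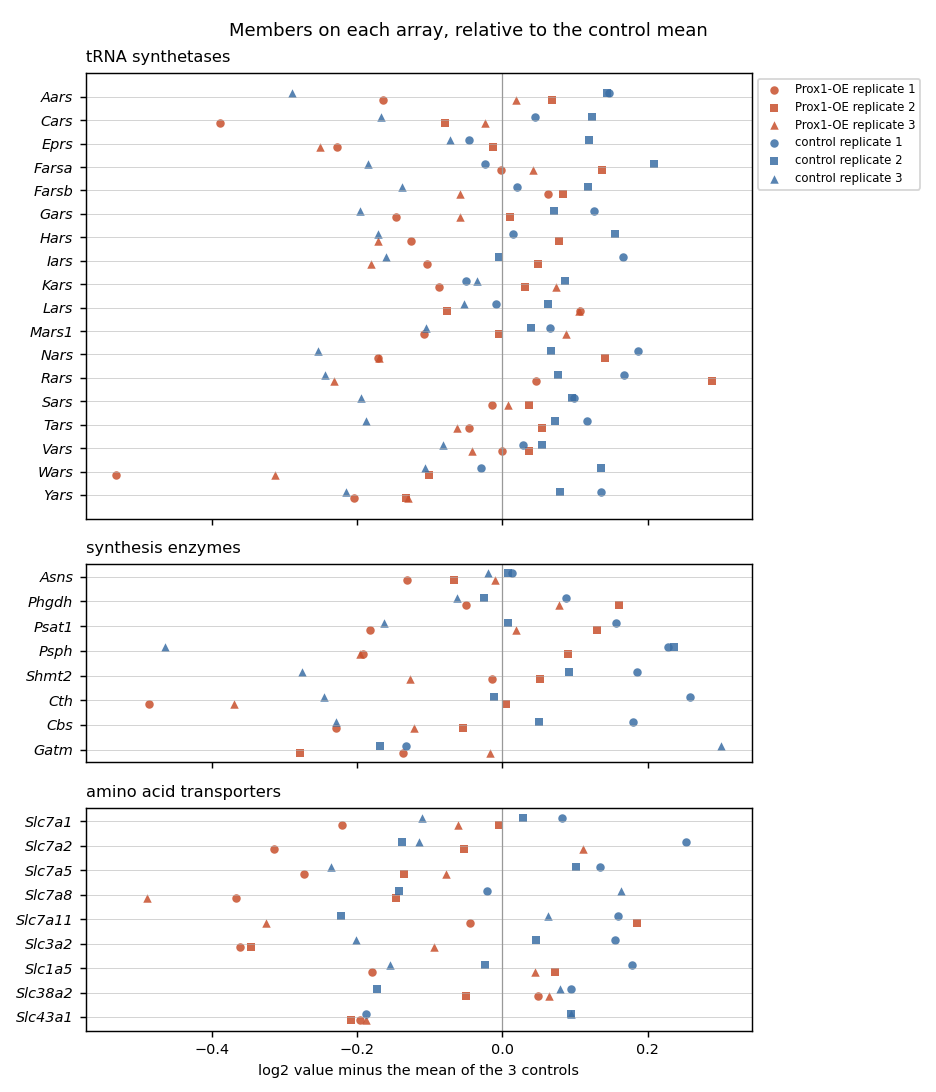
Each member's log2 value on each array minus its mean over the 3 controls (x axis), 1 gene a row, with Prox1-OE arrays in orange, controls in blue and a symbol for each replicate number. Control replicate 3 (blue triangle) is the leftmost control for 17 of the 18 synthetases, and the Prox1-OE points spread over the same span in most rows.

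Of the 8 synthesis enzymes, 7 had a negative difference, with a median of -0.08. Asns, which makes asparagine from aspartate and glutamine, read 12.15, 12.22 and 12.28 in Prox1-OE and 12.30, 12.29 and 12.26 in control (-0.07 ± 0.08, limma adjusted p = 0.892). The groups overlapped, and the 95% interval of the difference ran from -0.26 to 0.12. A second probe set of Asns differed by -0.02.

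The enzymes of transsulfuration, the route from homocysteine to cysteine, stood next. Cth, the cystathionine gamma-lyase that releases cysteine, read 9.45, 9.95 and 9.57 in Prox1-OE and 10.20, 9.93 and 9.69 in control (-0.28 ± 0.17, limma adjusted p = 0.779). Prox1-OE replicates 1 and 3 were below every control, and replicate 2 was not. Cbs, the cystathionine beta-synthase of the step before, read 9.79, 9.96 and 9.89 in Prox1-OE and 10.20, 10.07 and 9.79 in control (-0.14 ± 0.12, adjusted p = 0.851), with groups that overlapped. A dimmer probe set of Cbs differed by -0.23. Gatm, which makes the precursor of creatine from arginine and glycine, read 11.12, 10.97 and 11.24 in Prox1-OE and 11.12, 11.08 and 11.55 in control (-0.14 ± 0.14, limma adjusted p = 0.865). Control replicate 3 was the highest control here but the lowest for the other 7 enzymes, and without that array the difference was 0.01.

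The serine pathway, which branches from glycolysis through Phgdh, Psat1 and Psph and passes serine to Shmt2 for glycine and folate units, showed differences of 0.06, -0.01, -0.10 and -0.03 (limma adjusted p from 0.924 to 0.993). Psph had the widest spread of these, with an SD of 0.40 in control, where replicate 3 was the lowest. Phgdh, the first and committed step, was measured by 4 probe sets that named it alone. Among these, 3 differed by 0.04 to 0.14 and the other by 2.73 ± 0.90 (limma adjusted p = 0.760 over all probe sets).

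That probe set read 11.32, 12.13 and 11.58 on Prox1-OE replicates 1, 2 and 3, 7.49 and 7.83 on control replicates 1 and 2, and 11.53 on control replicate 3. The values thus fell on 2 levels that did not follow genotype, since control replicate 3 read with the Prox1-OE arrays. The probe set that stood for Phgdh read 11.33, 11.54 and 11.46 in Prox1-OE and 11.47, 11.36 and 11.32 in control, with no such step. A probe set annotated to Phgdh together with another gene showed the step as well, at 8.92, 9.62 and 8.99 in Prox1-OE and 5.13, 4.88 and 9.02 in control. In a search made after these values were seen, these were the only 2 of 45101 probe sets with control replicates 1 and 2 more than 2 log2 units below every other array, and 0 had them that far above. All 4 probe sets that named Phgdh alone, level or not, are of the kind that can bind near-identical transcripts. With the mean of its 4 probe sets, the difference of Phgdh was 0.74 in place of 0.06.

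**Figure D3:**
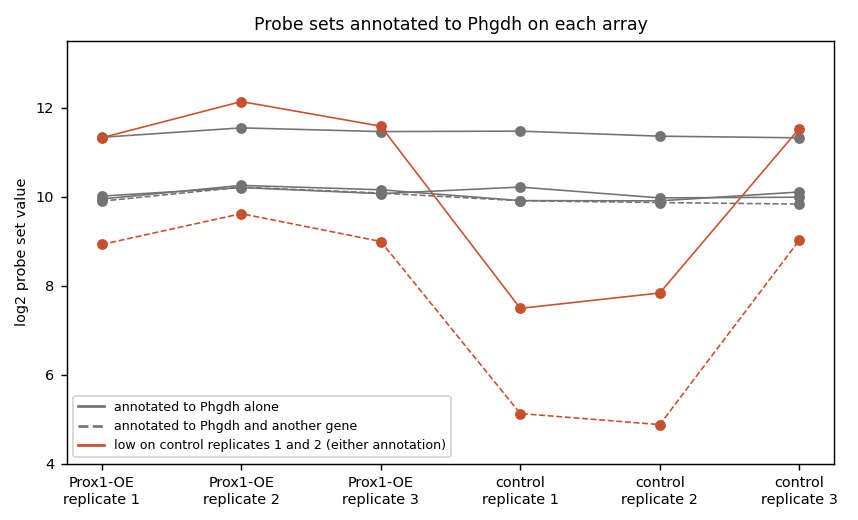
Log2 values (y axis) of the 6 probe sets annotated to Phgdh, alone (solid) or with another gene (dashed), on the 6 arrays (x axis). The 2 probe sets in orange drop on control replicates 1 and 2 and the other 4 stay level.

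Of the 9 transporters, 8 had a negative difference, with a median of -0.10. Slc7a8 (LAT2), an exchanger of neutral amino acids, read 7.94, 8.16 and 7.82 in Prox1-OE and 8.29, 8.17 and 8.47 in control (-0.33 ± 0.12, limma adjusted p = 0.702). It was the 1 member whose groups did not overlap, by a gap under 0.01 between Prox1-OE replicate 2 and control replicate 2, and 7.02% of all genes were lower with no overlap. No member was higher with no overlap, against 5.05% of all genes. Its partner Slc3a2 (4F2hc), the heavy chain that carries Slc7a5, Slc7a8 and Slc7a11 to the membrane, read 10.71, 10.73 and 10.98 in Prox1-OE and 11.23, 11.12 and 10.87 in control (-0.27 ± 0.12, adjusted p = 0.753). Prox1-OE replicate 3 lay above control replicate 3, so these groups overlapped.

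Slc7a5 (LAT1), the light chain that imports large neutral amino acids such as leucine, read 9.59, 9.73 and 9.79 in Prox1-OE and 9.97 and 9.63 on control replicates 2 and 3, with control replicate 1 above both (-0.16 ± 0.12, limma adjusted p = 0.820). Slc7a11 (xCT), which imports cystine for glutamate, differed by -0.06 ± 0.15 (limma adjusted p = 0.958). The heavy chain and its 3 light chains among the members thus all had negative differences, none past the threshold. Slc43a1 (LAT3), a transporter of branched-chain amino acids, read 4.69, 4.68 and 4.70 in Prox1-OE and 4.70, 4.98 and 4.98 in control (-0.20 ± 0.10, limma adjusted p = 0.766), close to the array medians.

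Slc7a1 (CAT1), the widespread importer of arginine and lysine, read 10.08, 10.30 and 10.24 in Prox1-OE and 10.39, 10.33 and 10.19 in control (-0.10 ± 0.10, limma adjusted p = 0.871). Slc7a2 (CAT2), the other cationic transporter, differed by -0.09 ± 0.15, Slc1a5 (ASCT2) by -0.02 ± 0.12 and Slc38a2 (SNAT2) by 0.02 ± 0.10 (limma adjusted p = 0.934, 0.984 and 0.981). Dimmer probe sets of Slc7a2 differed by -0.37, -0.30 and -0.13, that of Slc1a5 by 0.01 and those of Slc38a2 by -0.04 and -0.30. None of them passed the threshold. As a list, the transporters averaged 0.09, -0.05 and -0.05 over the control mean on the 3 controls and -0.21, -0.08 and -0.11 on Prox1-OE replicates 1, 2 and 3. The 3 Prox1-OE arrays were thus lower than each control, though narrowly for replicate 2 (-0.08 against -0.05). A list of 25 other amino acid enzymes also had lower sums in Prox1-OE (174.3 to 175.5) than in control (175.6 to 177.7). Sums of 25 other amino acid transporters overlapped, at 150.2 to 151.4 and 150.9 to 154.2. Prox1-OE replicate 1 was the lowest array for the member transporters. Over all members it was the lowest Prox1-OE array for 20 of 35, against 33.9% of all genes. Acinar markers summed to 154.6 to 155.6 in Prox1-OE and 155.8 to 156.1 in control, also without overlap, at -0.09, -0.12 and -0.04 over the control mean on the Prox1-OE arrays. The brightest of them read near the top of the scale, which limits what these sums show. Prox1-OE replicate 1 also had the highest B cell and macrophage markers (1.96 and 0.96 over the control mean, 5 of 5 and 6 of 7 genes above it). Macrophage markers summed to 50.01 to 54.8 in Prox1-OE and 47.1 to 49.2 in control, and B cell markers to 25.7 to 33.6 and 23.3 to 24.5. The part of any of these in the lower transporter means was not tested. Without Prox1-OE replicate 1 the median of the transporters was -0.07.

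Beta cells descend from the progenitors in which Ngn3-cre acts. Their markers, 8 measured of 10 listed, had 8 of 8 negative differences with a median of -0.56 (limma, 0 past the threshold and 5 with an unadjusted p under 0.05). They summed to 54.7 to 57.0 in Prox1-OE and 59.2 to 63.3 in control. Of the 8, 5 were lower with no overlap, against 7.02% of all genes. Ins2, Iapp and Pdx1 differed least (-0.18, -0.15 and -0.22), with groups that overlapped. Delta and PP cells share that origin, and their markers had 4 of 4 positive differences with a median of 0.74, and summed to 32.8 to 35.1 in Prox1-OE and 29.9 to 31.7 in control. Of these, Rbp4 rose (1.43 ± 0.14, limma adjusted p = 0.0247). Ppy differed by 1.29, and both were higher with no overlap, against 5.05% of all genes. Sst and Hhex differed by only 0.19 and 0.05, with groups that overlapped. Alpha cells share the origin too, and 4 of their 5 measured markers had negative differences, with a median of -0.16 and sums that overlapped. In bulk tissue, fewer cells of a type and less RNA per cell cannot be told apart. The part of these cells in the members' values was not tested.

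Genes that respond to amino acid shortage or to ATF4 were read as a companion list. Of 22 measured of 23 listed, 12 had negative differences, 0 passed the threshold and 0 had an unadjusted p under 0.05. The median was -0.05. Atf4 itself read 10.33, 10.41 and 10.43 in Prox1-OE and 10.53, 10.37 and 10.23 in control (0.01 ± 0.10, limma adjusted p = 0.991). Trib3, a pseudokinase that ATF4 induces, spanned 6.04 to 6.32 in Prox1-OE and read 7.29, 6.16 and 6.44 in control (-0.44 ± 0.26, adjusted p = 0.779). Chac1, which degrades glutathione, read 8.99, 8.90 and 8.70 in Prox1-OE and 9.91, 8.78 and 9.17 in control (-0.43 ± 0.25, adjusted p = 0.783). In both genes control replicate 1 stood above the other 5 arrays, and the list as a whole averaged 0.19 over the control mean there, against -0.07 and -0.12 on the other controls and -0.14 to -0.06 on the Prox1-OE arrays. Sesn2, a brake on growth signalling, and Mthfd2, of mitochondrial folate metabolism, differed by -0.23 ± 0.14 and -0.21 ± 0.14 (limma adjusted p = 0.781 and 0.800).

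Mitochondrial tRNA synthetases, a separate set of enzymes for the ribosomes of that organelle, gave 9 negative and 7 positive differences among 16 measured of 17, with a median of -0.03 and 0 past the threshold. Pars2 differed by -0.34 ± 0.13, Iars2 by -0.29 ± 0.13 and Cars2 by -0.13 ± 0.09, and Rars2 by 0.11 ± 0.09 (limma adjusted p from 0.720 to 0.827). Their array means spanned -0.07 to 0.02 over the control mean, a narrower range than that of the cytosolic synthetases (-0.16 to 0.09). Other parts of the charging and initiation machinery gave a median of 0.02 over 13 genes, 0 of them past the threshold. Eif2b5, of the exchange factor for eIF2, differed by 0.16 ± 0.13 and Eef1e1, of the multisynthetase complex, by 0.10 ± 0.14. Eef1a1, the elongation factor that carries charged tRNA to the ribosome, and Eif2s2, the beta subunit of eIF2, differed by -0.06 ± 0.08 and -0.06 ± 0.09 (limma adjusted p from 0.832 to 0.921 for the 4 genes). The array means of that list followed those of the cytosolic synthetases in placing control replicate 3 lowest (-0.14) and control replicate 2 highest (0.15).

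**Figure D4:**
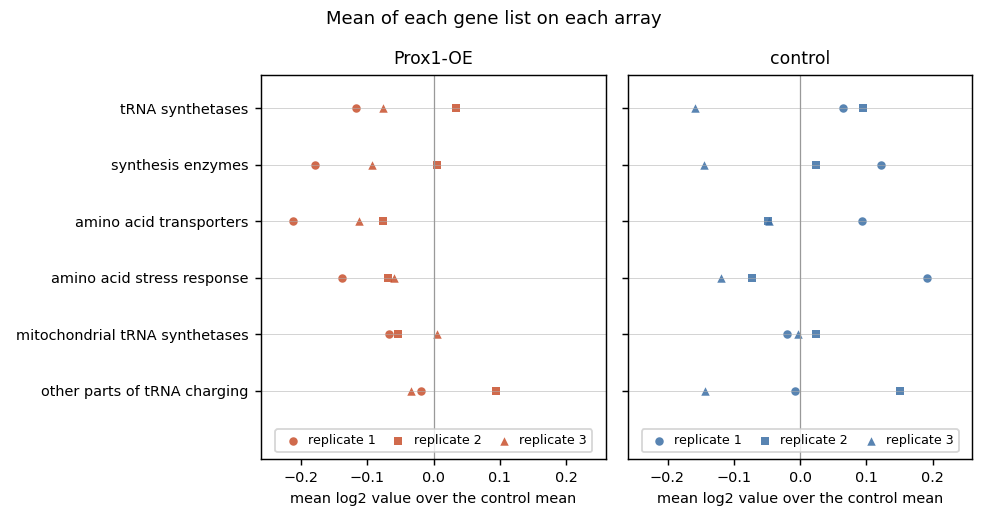
Mean log2 value of each list over the control mean (x axis) on the 3 Prox1-OE arrays (left) and the 3 controls (right), with a symbol for each replicate number. Control replicate 3 lies at -0.16 for the cytosolic synthetases and at -0.15 for the synthesis enzymes, and control replicate 1 at 0.19 for the stress response genes.

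Of 25 other amino acid transporters, 18 had negative differences and 0 passed, with a median of -0.04. Slc16a10 (TAT1), an aromatic amino acid transporter, read 4.81, 4.92 and 5.09 in Prox1-OE and 5.40, 5.25 and 5.14 in control, so that its groups did not overlap (-0.33 ± 0.11, limma adjusted p = 0.693). With the mean of its 4 probe sets the difference was -0.12. The lysosomal Slc36a1 did not overlap in the other direction, at 6.16, 6.10 and 6.40 in Prox1-OE and 6.07, 6.08 and 5.95 in control (0.18 ± 0.10, adjusted p = 0.777), and 12.1% of all genes had groups without overlap in either direction. Slc7a3 (CAT3) differed by 0.20 ± 0.11 and Slc7a4 by -0.20 ± 0.11 (limma adjusted p = 0.775 and 0.777). Of 25 other enzymes of amino acid metabolism measured of 32, 16 had negative differences, 4 had an unadjusted p under 0.05 and 0 passed. Gamt, which completes creatine from the product of Gatm, read 8.47, 8.65 and 9.11 in Prox1-OE and 9.20, 9.02 and 9.55 in control (-0.51 ± 0.19, limma adjusted p = 0.711). Its groups overlapped, and control replicate 3 was highest for both enzymes of creatine synthesis. Bckdhb, of branched-chain amino acid breakdown, differed by -0.26 ± 0.11 and Gpt, an alanine aminotransferase, by -0.24 ± 0.10, whereas Arg1, an arginase, differed by 0.35 ± 0.14 from a probe set that was not above the median on every array (limma adjusted p = 0.740 for the 3). With the probe set of Gpt that is specific to 1 transcript, its difference was -0.07.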

How the data were processed

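The authors deposited 1 log2 value for each of 45101 probe sets on each of 6 arrays, 3 a group. RMA and Partek 6.5 stand in the submitters' processing notes, whose settings are not given in the sources used here. RMA compresses dim signals, and it includes quantile normalization, which hides a change in total RNA. Labelling started from 100 ng of total RNA, per the labels' protocols. By the platform's annotation, 34958 probe sets name a single gene, 932 name several and 9211 name none. Genes were named from the first kind only, and older or newer symbols were matched through RefSeq gene IDs.

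Genotypes were tested in limma 3.58.1 (R 4.3.3; lmFit, then eBayes) without covariates or a filter on dim genes, two-sided, with Benjamini-Hochberg adjustment over all 18194 genes at 0.05. The fit was tested on simulated data. Adjusted p-values are over all genes unless stated. The number of arrays limits the precision.

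The members and lists were chosen with earlier results of these data known. Named members had the smallest limma p of their role, groups without overlap or the brightest probe set, with Asns, Slc7a1, Slc7a5 and Slc3a2. Up to 4 genes of each companion list were named by smallest p. Values of Phgdh, Atf4, Slc7a11, Farsa and Farsb, and of the remaining serine enzymes and transporters, were added after they were seen. Other probe set rules, scalings, filters, weights and sample sets were tried. Deviations of same-numbered arrays from their group means correlated at 0.04, 0.14 and 0.11 (replicates 1, 2 and 3). Those of differently numbered arrays were all lower, from -0.14 to 0.01. Deviations cancel within each group, so these correlations depend on one another, and higher ones for some arrays go with lower ones for others. The labels state no pairing, so the main fit used none, and whether the numbers pair samples was not tested.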

Additional observations from a re-analysis of the deposited data

How the results depend on the processing

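No member passed the threshold under any of the 16 other settings. Among the named genes carried through these settings, the smallest limma adjusted p was 0.572 for a member (Slc7a8) and 0.485 for a companion gene (Gamt). Over all genes, 2 passed in place of 5 with the replicate block, which called 0 members, 1 without both Prox1-OE replicate 1 and control replicate 3 (chosen after seeing the data), and 0 to 4 when each array was left out in turn. Same-numbered arrays were not shown to be paired. Members with a negative difference numbered 16 to 31 without any one array, the lowest without control replicate 1 and the highest without control replicate 3, and 23 of 35 with median centring. The median of the synthetases ran from -0.14 (without control replicate 3) to 0.018 (without control replicate 1), that of the enzymes from -0.13 to -0.02 and that of the transporters from -0.18 to -0.06. Signs turned for 4 of the named genes carried through these settings, and the cause was not tested. With arrays left out in turn, Iars ran from -0.16 to 0.0044 and Nars from -0.19 to 0.027 (both highest without control replicate 1). Gatm ran from -0.23 to 0.0064 (without control replicate 3), and was 0.003 without that array and Prox1-OE replicate 1. Eef1e1 ran from -0.044 (without control replicate 3) to 0.19, with -0.00011 without Prox1-OE replicate 2. Averaged over all probe sets of each gene, Eprs was -0.08, Nars -0.01, Asns -0.05, Cars2 -0.08, Eif2b5 0.05, Eif2s2 -0.03, Slc7a4 -0.11 and Gpt -0.15, each nearer 0 than its brightest probe set by over 1.5 times. Dim probe sets near the array medians, such as that of Slc43a1, are less precise in fold.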
